A study of Sus scrofa with 13 samples.

Results

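The transcripts described here are those of the AP-1 and EGR immediate early transcription factors FOS, FOSB, FOSL2, JUN, JUNB, JUND, ATF3, EGR1, EGR2 and EGR3. They were chosen by gene symbol in the array's annotation, with every probe set that carries 1 of these symbols alone. Of the 10 genes, 5 could be followed, FOS, FOSL2, JUN and ATF3 with 1 probe set each and EGR1 with 3, called EGR1 (a), (b) and (c) here from the highest mean intensity to the lowest. The identifiers are in the plot of values by array. These 7 probe sets stand among 23999 on the array, and the 5 genes among 6765 genes that had a probe set of 1 symbol. FOSB, JUNB, JUND, EGR2 and EGR3 had no probe set of that name in the annotation and are not analysed here. A further 4 probe sets carried both FOSL2 and FRZB, an unrelated secreted inhibitor of Wnt signalling, and were assigned to neither.

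RNA came from drill biopsies of the hearts of miniature pigs (female Sinclair miniswine) aged 3 months when a coronary occlusion was made, by tying off for good the diagonal branches of the LAD, the artery along the front of the heart. The stem cell group (7 arrays) had 50000000 MPCs, an abbreviation that the labels leave unexplained, put into the border zone of the infarct in 2 ml saline, as 10000000 at each of 5 sites. The saline group (6 arrays) had 2 ml saline put into 5 similar sites. All animals therefore had a permanent infarct and the same number of injections, and no uninfarcted heart is among the arrays. Biopsies were taken at month 4 after the operation. The position of each biopsy relative to the infarct is not given per array, and neither is a hybridisation date or batch, so values within batches cannot be given. The labels number the arrays as replicates without saying in words that each is a different animal, so p-values measure the spread between these arrays.

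The level of an array is an intensity after GCRMA, which corrects background and normalizes between arrays, and differences are on the log2 scale as stem cells minus saline. The median intensity of an array was 13.4 to 13.9, and Pearson's r between pairs of arrays ran from 0.936 to 0.986. The 11 cardiomyocyte markers measured, among them the contractile and calcium handling genes ACTC1, TTN, PLN and RYR2, averaged a log2 intensity of 13.91 to 14.17 on the stem cell arrays and 13.79 to 14.04 on the saline arrays, so the heart muscle label was borne out on all 13. Each array measures a mixture of cells, in which fewer cells of a type and less RNA per cell cannot be told apart.

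AP-1 is a dimer of basic leucine zipper proteins. A Fos family protein such as FOS or FOSL2 needs a Jun partner to bind DNA, whereas JUN also pairs with itself, and ATF3 joins JUN or pairs with itself, mostly as a repressor when alone. EGR1 is a zinc finger factor that binds GC-rich sites. Their genes are called immediate early because growth factors, stress and stretch switch them on within minutes through MAP kinases, serum response factor and CREB family proteins, without new protein synthesis, and because the transcripts decay fast. In rodent hearts they are known to be induced by ischaemia and by haemodynamic load.

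None of the 7 probe sets passed limma's moderated test between the groups after adjustment. At an adjusted p under 0.05, 0 of 7 passed, against 0 of all 14399 probe sets tested (0.0%). At an unadjusted p under 0.05, FOSL2 was lower after stem cells, 1 of 7 against 742 of all probe sets tested (5.15%). In the other direction 0 of 7 stood beside 777 of all (5.4%). The groups overlapped for 7 of 7, and failed to overlap for 40 of all probe sets (0.278%). By gene, 3 of 5 were lower and 2 higher after stem cells with a median log2 difference of -0.102, beside 6793 lower, 7606 higher and a median of 0.017 over all probe sets.

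**Figure D1:**
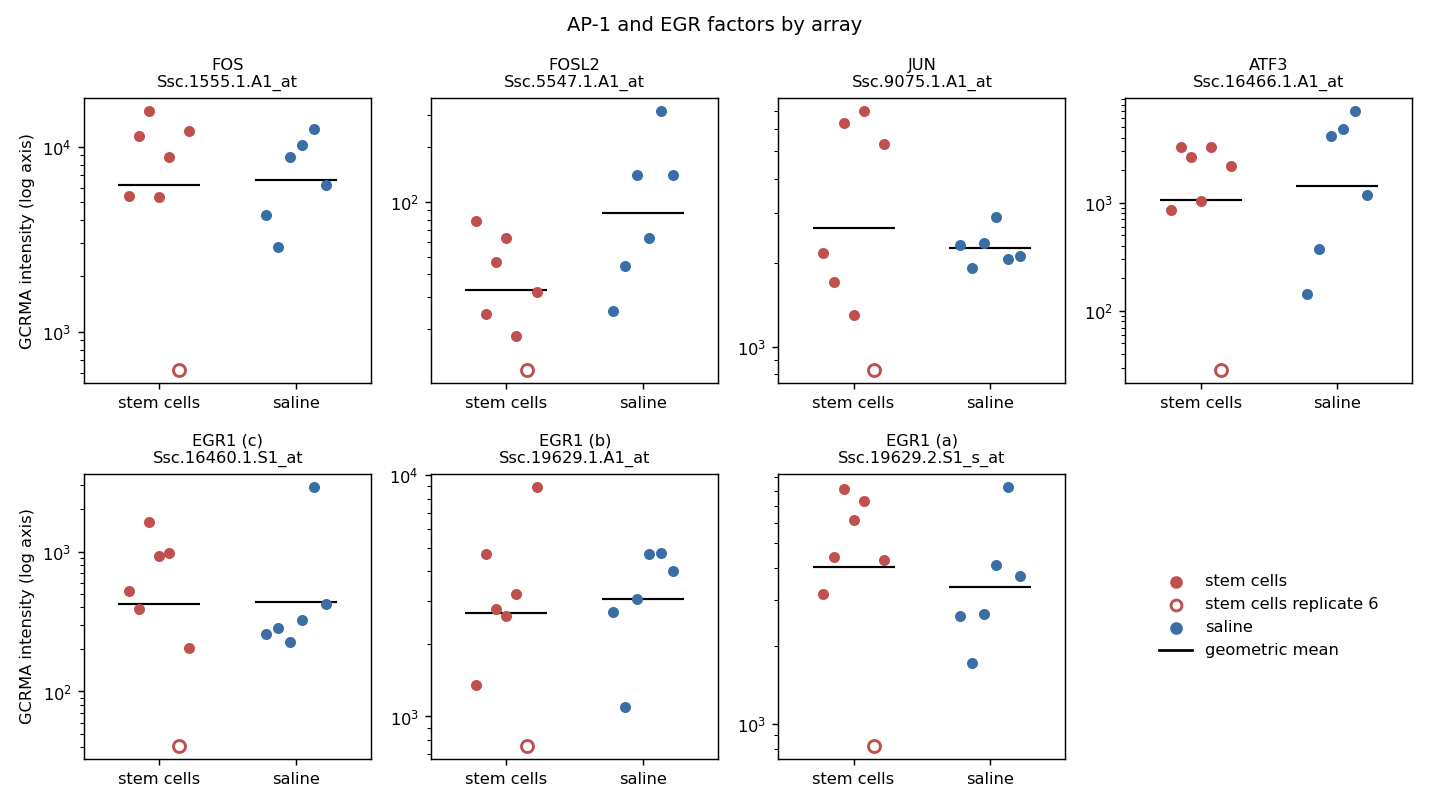
GCRMA intensity of each AP-1 and EGR probe set (log axis) by group, with 1 point per array, an open circle for stem cells replicate 6 and a bar at the geometric mean of each group. The open circle is the lowest point in all 7 panels, and the groups overlap in each.

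FOS, the founding Fos family member, had intensities of 5440, 11400, 15600, 5360, 8740, 619 and 12100 on stem cell arrays 1 to 7. On saline arrays 1 to 6 it had 4260, 2860, 8790, 10200, 12400 and 6220. Replicate 6 was far under every other array. The other stem cell arrays lay between 5360 and 15600, within or just above the range of the saline arrays. Mean log2 intensity was 12.59 ± 1.57 after stem cells and 12.69 ± 0.81 after saline (SD, n = 7 and 6). The difference of -0.10 ± 0.61 (SE) had a 95% interval from -1.4 to 1.2 and an adjusted p of 0.961 (limma). It turned to 0.45 ± 0.36 without stem cells replicate 6, with an interval from -0.31 to 1.21 and an adjusted p of 0.808.

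FOSL2, also called FRA2, is a Fos family member induced later and for longer than FOS in cultured rodent cells. It was the one factor past the unadjusted threshold. It was also the faintest, at the 52.6th percentile of mean intensity among the probe sets tested, against the 81.0th to 98.0th for the others. Its lowest reading, 11.8, lay under the median intensity of an array (13.4 to 13.9). It read 78.9, 24.2, 46.5, 63.6, 18.2, 11.8 and 31.9 on the stem cell arrays. It read 24.9, 44.5, 140, 63.0, 318 and 140 on the saline arrays. All 7 stem cell arrays lay below the saline mean, 3 of them below every saline array, and 3 saline arrays lay above every stem cell array, while the others were interspersed. Mean log2 intensity was 5.02 ± 0.99 after stem cells and 6.44 ± 1.33 after saline (SD, n = 7 and 6). The difference was -1.42 ± 0.56 (SE), so that the geometric mean in the saline group was 2.67 times that in the stem cell group, with a 95% interval from -2.61 to -0.23. Its p was 0.0224 before and 0.423 after adjustment over all 14399 probe sets (limma), and the exact permutation test over the 1716 splits of the arrays gave a two-sided p of 0.053. Without stem cells replicate 6 the difference was -1.18 ± 0.55, with a p of 0.0495 and an adjusted p of 0.702, and the exact p was 0.104. Without saline replicate 5, which read 318, the difference was -1.05 and its unadjusted p was no longer under 0.05. The 4 probe sets that carried both FOSL2 and FRZB did not repeat this order of arrays. Their highest readings were 58.4, 130, 29.4 and 2270 on the stem cell arrays, against 46.5, 121, 40.4 and 2430 on the saline arrays. Saline replicates 3 and 6 lay above every stem cell array for FOSL2, but on none of these 4. Which of the genes these probe sets measure was not tested.

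JUN, the main partner of the Fos proteins, had no difference in mean past the threshold. Its stem cell arrays covered a wider range than its saline arrays, a contrast that missed the threshold after adjustment over all probe sets. It read 2160, 1710, 6310, 1300, 6980, 825 and 5310 on the stem cell arrays. It read 2320, 1910, 2360, 2910, 2060 and 2120 on the saline arrays. The saline arrays were packed closely, whereas 3 stem cell arrays (replicates 3, 5 and 7) lay above all of them and 3 (replicates 2, 4 and 6) below all of them. Mean log2 intensity was 11.37 ± 1.22 after stem cells and 11.14 ± 0.21 after saline (SD, n = 7 and 6), a difference of 0.23 ± 0.44 (SE) with a 95% interval from -0.7 to 1.16 and an adjusted p of 0.867 (limma). Without replicate 6 the difference was 0.51 ± 0.38.

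The spread of each probe set was compared between the groups after these values had been seen, by an exact permutation test of the mean squared deviation of the arrays from their group median. For JUN the SD after stem cells was 5.76 times that after saline, with an exact two-sided p of 0.00932, and 0.992 after adjustment over all probe sets tested. Without stem cells replicate 6 the ratio was 5.0, with an exact p of 0.00216 and an adjusted p of 0.286. JUN was 1 of 7 probe sets wider after stem cells at an unadjusted p under 0.05, beside 437 of all tested (3.03%), and 1 of 7 beside 362 (2.51%) without replicate 6. The SD ratio of the other 6 probe sets lay above 1 for 5 of them and at 0.743 for FOSL2. Without replicate 6 it lay under 1 for 5 of those 6, at 0.787 for FOS, 0.616 for FOSL2 and 0.374 for ATF3 (exact p = 0.0606), and above 1 for the EGR1 probe set (b) alone, at 1.15.

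ATF3, a stress-induced member of the ATF/CREB family, was the most variable of the factors. It read 851, 3250, 2620, 1030, 3260, 28.3 and 2160 on the stem cell arrays. It read 142, 377, 4090, 4820, 7050 and 1170 on the saline arrays. Both the lowest saline readings and the highest ones lay outside the range of the stem cell arrays other than replicate 6, which was the lowest of all 13. From the lowest to the highest array the intensity differed 249-fold, and 49.6-fold without replicate 6. Mean log2 intensity was 10.05 ± 2.43 after stem cells and 10.49 ± 2.26 after saline (SD, n = 7 and 6). The difference of -0.44 ± 1.12 (SE) had an adjusted p of 0.907 (limma) and a 95% interval from -2.82 to 1.94, which holds changes of several-fold in either direction. Without replicate 6 the difference was 0.43 ± 0.83.

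EGR1 was represented by 3 probe sets that did not give the same order of arrays. Of these, (a) and (b) carry the same cluster number in their identifiers, and the suffix of (a) marks probes shared between transcripts. EGR1 (a) read 3180, 4410, 8110, 6150, 7320, 819 and 4290 on the stem cell arrays, against 2610, 1710, 2660, 4110, 8290 and 3730 on the saline arrays. EGR1 (c) read 519, 387, 1630, 926, 970, 40.8 and 203 on the stem cell arrays, against 257, 284, 227, 323, 2910 and 424 on the saline arrays. On both, saline replicate 5 and stem cells replicate 3 were the highest arrays of the 13, and the groups overlapped. EGR1 (b) read 1350, 4710, 2800, 2600, 3220, 755 and 8970 on the stem cell arrays, against 2710, 1100, 3060, 4730, 4750 and 3990 on the saline arrays, and there stem cells replicate 7 was the highest.

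The differences of the EGR1 probe sets did not share a sign. They were 0.26 ± 0.47 (SE) for (a), -0.03 ± 0.77 for (c) and -0.19 ± 0.48 for (b), with adjusted p-values of 0.862, 0.99 and 0.909 (limma). Without stem cells replicate 6 all 3 were above 0, at 0.64 ± 0.33, 0.53 ± 0.61 and 0.12 ± 0.42. Of these the first, at an interval from -0.06 to 1.34 and an unadjusted p of 0.0683, came nearest to the threshold, with an adjusted p of 0.713. Over the 13 arrays (c) and (a) correlated at r = 0.901 (permutation p = 3e-05, 9e-05 adjusted over 3 pairs; rho = 0.802) and at 0.82 without replicate 6. EGR1 (b) correlated with (a) at 0.676 (permutation p = 0.0113, adjusted 0.0169; rho = 0.588, adjusted 0.0577) and at 0.457 without replicate 6 (adjusted 0.201). With (c) its r was 0.379 (permutation p = 0.201, adjusted 0.201), and -0.019 without replicate 6.

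**Figure D2:**
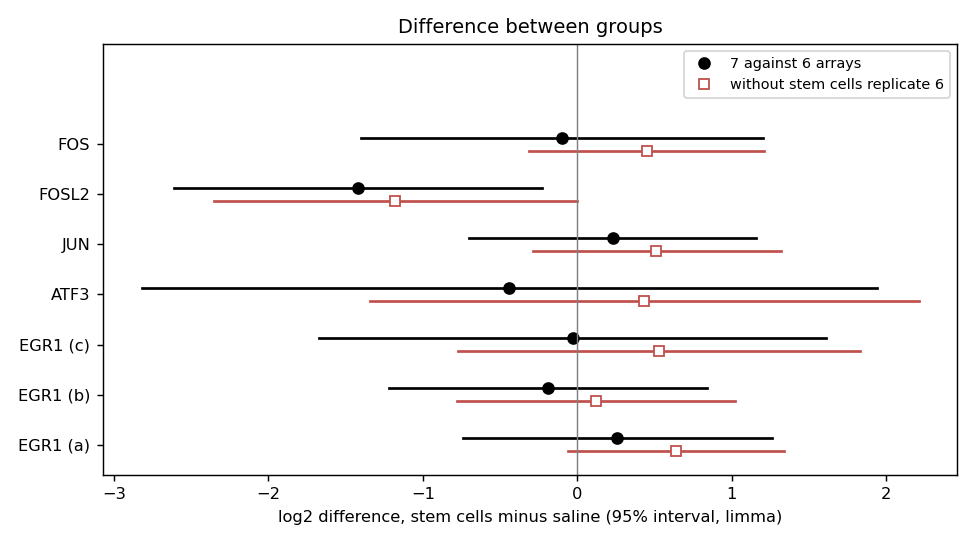
Log2 difference of each AP-1 and EGR probe set, stem cells minus saline, with its 95% interval from limma, for 7 against 6 arrays (filled circles) and without stem cells replicate 6 (open squares). FOSL2 lies below 0 in both fits, and without the array every other point lies above 0.

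Leaving out stem cells replicate 6 changed the sign of 4 of the 7 differences, those of FOS, ATF3 and the EGR1 probe sets (c) and (b), each of which was negative with it and positive without it. By gene the median difference was 0.45 without it, with 1 of 5 genes lower, beside a median of 0.006 and 7056 lower over all probe sets. At an adjusted p under 0.05, 0 of 7 passed in that fit as well, beside 0.0% of all. At an unadjusted p under 0.05, FOSL2 was again lower (1 of 7, beside 537 of all, 3.73%), and 0 of 7 were higher beside 485 of all (3.37%).

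On that array all 7 AP-1 and EGR probe sets had their lowest value of the 13 arrays, as had 10.7% of all probe sets tested. Another 19.5% of all probe sets had their highest value there. Compared with the median of the other 12 arrays, ATF3 was 84.1-fold lower on replicate 6, further than any other of the 6884 tested probe sets of 1 symbol. B2M and BTG2, described below, followed closely at 83.7- and 83.0-fold. FOS was 14.2-fold lower, EGR1 5.13-, 9.93- and 4.16-fold lower by (a), (c) and (b), FOSL2 4.59-fold lower and JUN 2.71-fold lower. Replicate 6 was thus low for each factor, but unequally so, and JUN was nearest to its other arrays.

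Replicate 6 was also set apart in other genes. Among the probe sets furthest below the other arrays, ranked after their values were seen, were B2M, the light chain of MHC class I (79.9, against a median of 6690), OAZ1, an inhibitor of polyamine synthesis (335, against 10500), the anti-proliferative gene BTG2, the chemokine CCL2 and the matricellular gene CYR61. In all, 131 of the 14399 probe sets lay over 4-fold below the median of the other arrays on replicate 6, and 5 to 33 on each other array. Its median correlation with the other arrays was 0.96, the lowest of the 13 (0.965 to 0.98 for the others). The log2 ratio of 3' to 5' control probe sets on it was 2.93 for actin, within the range of the other arrays (1.61 to 5.03). For GAPDH it was 0.471 (0.0244 to 1.12 on the others). For EF1A it was 0.733, the second lowest of the 13 (0.712 to 1.07 on the others).

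**Figure D3:**
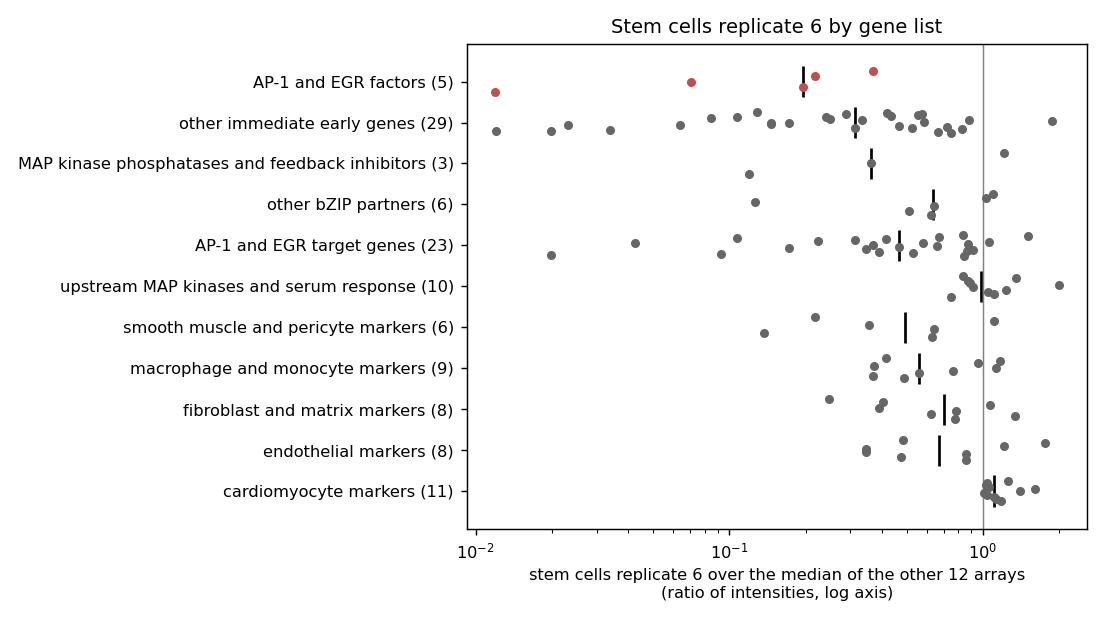
Intensity on stem cells replicate 6 divided by the median of the other 12 arrays (log axis), with 1 point per gene, a bar at the median of each list and the number of genes tested in parentheses. The 5 AP-1 and EGR genes and most of the other immediate early genes lie left of 1. The MAP kinases lie on both sides of 1, with MAPK14 furthest to the right, and the cardiomyocyte markers lie at or right of 1.

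Marker lists of several cell types had a low mean on the same array. Mean log2 intensity of the 11 cardiomyocyte markers was 14.17 on replicate 6, the highest of all arrays. That of 8 fibroblast and matrix markers was 7.47, the lowest of all, against 7.51 to 9.07 on the other stem cell arrays and 7.52 to 9.26 on the saline arrays. The 9 macrophage markers stood at 6.37, also the lowest, against 6.41 to 7.36 on the other stem cell arrays and 6.67 to 7.7 on the saline arrays. The 6 smooth muscle and pericyte markers were lowest there too, at 9.26 against 9.56 to 11.05 and 10.02 to 11.27, and so was the neutrophil gene S100A9, at 4.31 against 4.9 to 9.92 and 5.37 to 10.49. The 8 endothelial markers stood at 7.42, the second lowest (7.24 to 8.25 and 7.82 to 8.51). Other lists were not lowest there: the 2 T and B cell genes stood at 3.71 (3.4 to 3.97 on the other stem cell arrays and 3.5 to 4.06 on the saline arrays), the 2 red blood cell genes at 6.73 (6.77 to 7.64 and 6.49 to 7.63) and the fat cell gene FABP4 at 11.22 (10.59 to 12.53 and 10.39 to 12.23). Within a list the genes differed. Replicate 6 was lowest for 3 of 8 fibroblast, 3 of 9 macrophage, 3 of 6 smooth muscle and 2 of 8 endothelial markers. Over all probe sets tested that share was 10.7%. Replicate 6 was the highest array for COL3A1, which was faint throughout (16.7, against at most 16.4), and for the endothelial gene TEK (1200, against at most 961). Of the 2 red blood cell genes, HBB was at its highest there (1450, against at most 1370). The other, ALAS2, was at its lowest there (7.72, against at least 11.2). The part of these cell types, and of the array itself, in the low factor readings was not tested.

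The factors varied between arrays far more than most genes. Within groups the SD was 2.35 on the log2 scale for ATF3, 1.28 for FOS, 1.16 for FOSL2, 0.91 for JUN and 0.98 to 1.61 for the EGR1 probe sets, against a median of 0.321 over all probe sets tested. These values lay between the 96.8th and the 99.9th percentile of all. Without replicate 6 the SDs ran from 0.66 to 1.71, between the 92.2nd and the 99.7th percentile, so the width did not rest on that array alone. Set against probe sets of the same decile of mean intensity, they lay between the 96.2nd and the 99.9th percentile without it.

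**Figure D4:**
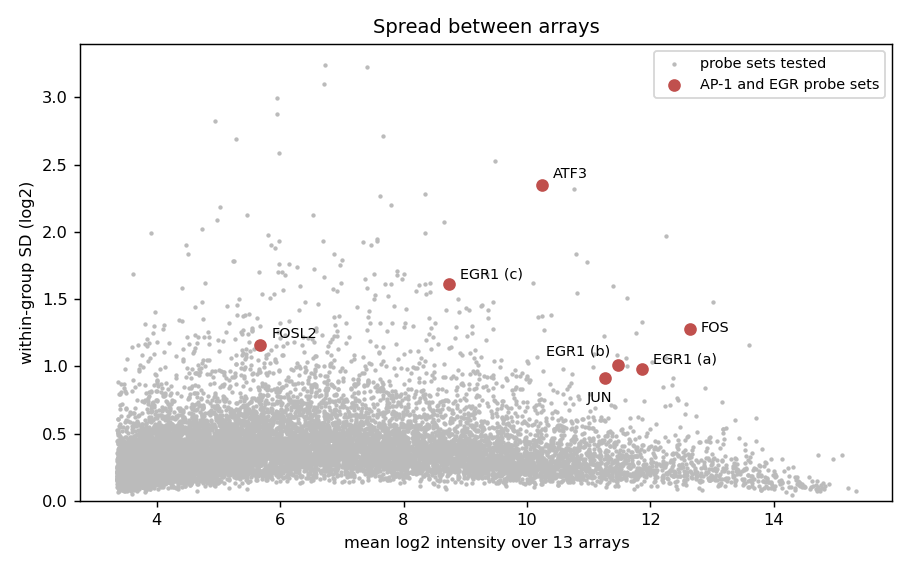
Pooled within-group SD of log2 intensity of each of the 14399 probe sets tested (grey) against its mean log2 intensity over the 13 arrays, with the 7 AP-1 and EGR probe sets in red. All 7 lie near the upper edge of the cloud at their intensity, ATF3 highest at 2.35.

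Several factors were high and low on the same arrays. Of 10 pairs among the 5 genes, with EGR1 taken from probe set (a), 4 correlated past an adjusted permutation p of 0.05 by Pearson's r and 3 by Spearman's rho over 13 arrays. Without replicate 6 the counts were 2 by r and 0 by rho. FOS and ATF3 were closest, with r = 0.922 (permutation p = 5e-05, adjusted 0.0005) and rho = 0.797 (p = 0.00172, adjusted 0.014). Without the 2 arrays farthest from the median of FOS, stem cells replicate 6 and saline replicate 2, r was 0.811. Within the 7 stem cell arrays r was 0.976 (exact permutation p = 0.00794, adjusted 0.062) but rho was 0.643 (exact p = 0.139, adjusted 0.278). Among the 6 stem cell arrays without replicate 6, a setting chosen with the values known, r was 0.812 (exact permutation p = 0.0764, adjusted 0.382). Within the 6 saline arrays r was 0.907 (exact permutation p = 0.0111, adjusted 0.111) and rho 0.943 (exact p = 0.0167, adjusted 0.0835). Over the 12 arrays without replicate 6 r was 0.835 (adjusted permutation p = 0.0085) and rho 0.741 (adjusted 0.065).

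FOS and EGR1 (a) had r = 0.864 (adjusted permutation p = 0.0019) and rho = 0.769 (adjusted 0.014), with 0.561 when the 2 farthest arrays were left out and 0.717 without replicate 6 (adjusted 0.0456). Among the 6 stem cell arrays without replicate 6 r was 0.377 (exact permutation p = 0.431, adjusted 0.479). Within the 6 saline arrays it was 0.839 (exact permutation p = 0.0306, adjusted 0.153). Relations of other factors with EGR1 (b) and (c) were not tested. ATF3 and EGR1 had r = 0.807 (adjusted permutation p = 0.00417) and 0.615 without replicate 6 (adjusted 0.11), so that relation passed the threshold with replicate 6 and missed it without. FOS and JUN behaved likewise, at 0.691 (adjusted permutation p = 0.0193) and 0.517 without replicate 6 (adjusted 0.213). FOSL2 passed with none of the others. With JUN its r was -0.038 (permutation p = 0.904), and -0.4 without replicate 6. Among the saline arrays replicate 5 was the highest for 6 of 7 probe sets, all but JUN. For 4 of them, FOSL2, ATF3 and EGR1 (a) and (c), it was the highest of all 13 arrays, as it was for 7.12% of all probe sets tested.

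**Figure D5:**
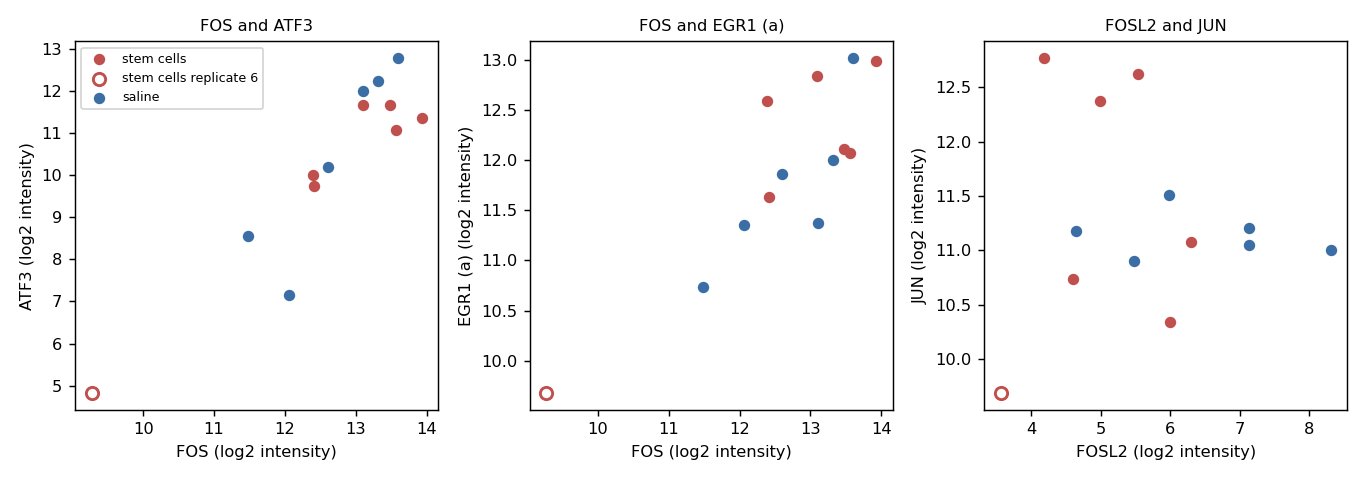
Log2 intensity of FOS against ATF3 (left), FOS against EGR1, probe set (a) (middle) and FOSL2 against JUN (right), with 1 point per array, stem cells in red with replicate 6 open and saline in blue. FOS and ATF3 have r = 0.922 over the 13 arrays and 0.835 without the open circle, and FOSL2 and JUN show no common order (r = -0.038).

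The mean of the 5 genes, each centred on its own mean, ranked the arrays. It stood at -0.11, 0.18, 0.95, -0.08, 0.57, -2.94 and 0.48 on stem cell arrays 1 to 7, and at -1.06, -0.91, 0.62, 0.67, 1.4 and 0.23 on saline arrays 1 to 6 (log2). Saline replicates 1 and 2 were the lowest after stem cells replicate 6. Of 6877 other probe sets of 1 symbol, those whose pattern was most like this mean by Pearson's r over the 13 arrays were ZFP36 (0.96), which encodes a protein that promotes decay of AU-rich transcripts, the kinase PLK2 (0.939), the GTPase RHOB (0.928), IER5 (0.926), BTG2 (0.913), the bZIP factor CEBPB (0.897), the actin-binding gene XIRP1 (0.892), CYR61 (0.892), the MAP kinase phosphatase DUSP1 (0.88) and B2M (0.858). Without replicate 6 the 10 most alike were RHOB (0.919), ZFP36 (0.889), the adaptor SH3KBP1 (0.871), ANKRD1, a stress-responsive cofactor of heart muscle (0.863), IER5 (0.852), PLK2 (0.848), CEBPB (0.827), BTG2 (0.778), the prostaglandin receptor PTGER3 (0.772) and SYNM, an intermediate filament gene (0.769). ZFP36, PLK2, RHOB, IER5, BTG2 and CEBPB were in both sets of 10. Of the first 10, 6 belonged to a list of other immediate early genes, and of the second, 5. All points share arrays and their normalization, and no p is given for likenesses chosen by their size.

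That list of other immediate early genes held 29 tested genes out of 46. None passed an adjusted p of 0.05, 20 were lower and 9 higher after stem cells, and the median difference was -0.091. Without replicate 6 the counts were the other way round, 9 lower and 20 higher, with a median of 0.111. At an unadjusted p under 0.05, 2 of 29 were lower, beside 5.15% of all probe sets tested, and 1 of 29 was higher, beside 5.4%. Both of the lower ones were orphan nuclear receptors of the NR4A family: NR4A3 averaged 7.87 ± 1.65 after stem cells and 10.07 ± 1.29 after saline (log2 intensity, SD, n = 7 and 6), a difference of -2.20 ± 0.72 (SE, limma adjusted p = 0.41), and NR4A2 had a difference of -1.66 ± 0.64 (adjusted p = 0.423). Their differences were -1.90 and -1.27 without replicate 6. KLF9, a zinc finger gene induced by glucocorticoids, was the higher one, at 0.46 ± 0.18 (adjusted p = 0.423). It was highest on replicate 6 (9950, against 3290 to 7610), and its difference was 0.35 ± 0.16 without that array. At an unadjusted p under 0.05 without replicate 6, 2 of 29 were higher, KLF9 and SGK1 (0.46 ± 0.21), beside 3.37% of all. The 2 NR4A genes were then still lower, beside 3.73% of all. HBEGF, a ligand of the EGF receptor, had a difference of -0.63 ± 0.38. Its probe set was faint, with a median of 13.9 on the arrays other than replicate 6, about the median intensity of an array. Of the 29 genes 21 (72.4%) had their lowest value on replicate 6, against 10.7% of all probe sets. Their mean log2 intensity was 7.54 there, against 9.34 to 9.95 on the other stem cell arrays and 8.86 to 10.65 on the saline arrays.

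Of the other basic leucine zipper genes, 6 of 25 listed were tested, 4 lower and 2 higher after stem cells with a median of -0.106, and 0 passed an adjusted p of 0.05. CREM, a cyclic AMP-responsive relative of CREB, had a difference of -1.0 ± 0.45 (SE, limma adjusted p = 0.458), or -0.62 without replicate 6, where it read 255 against 916 to 4700 on the other arrays. DDIT3, a stress-induced C/EBP relative, had a difference of -1.09 ± 0.63, with a log2 SD of 0.22 after stem cells and 1.94 after saline. On the arrays other than replicate 6 its median intensity was 28.1 and its highest 675. The difference was -0.16 ± 0.16 for ATF4, the main factor of the integrated stress response, and 0.19 ± 0.25 for CEBPD. The EGR partners and corepressors had 2 tested genes of 6, SP1 and WT1, with differences of -0.09 and -0.01.

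Of the upstream MAP kinase and serum response genes 10 of 38 listed were tested, 4 lower and 6 higher with a median of 0.04, 0 at an unadjusted p under 0.05 and 0 after adjustment. The smallest p belonged to MAPK12, a p38 kinase (-0.39 ± 0.22), MAP2K2, the kinase of ERK (-0.30 ± 0.18), MAPK3, which is ERK1 (-0.20 ± 0.16), and MAPK9, a JUN kinase (0.17 ± 0.15). On replicate 6 the mean log2 intensity of the 10 genes, 6.5, lay within that of the other stem cell arrays (6.32 to 6.52). There 0 of 10 had their lowest value, beside 10.7% of all probe sets. MAPK14 (218, against at most 176) and MAPK9 (37.3, against at most 33.4) had their highest value there, as had 19.5% of all probe sets. Of the phosphatases and feedback inhibitors that end MAP kinase signals, 3 of 16 were tested and all 3 lay lower after stem cells, 0 of them at an unadjusted p under 0.05. These were DUSP6 (-0.71 ± 0.37), DUSP7 (-0.17 ± 0.24) and DUSP1 (-0.22 ± 0.44, or 0.22 without replicate 6, where it read 774 against 4180 to 8170 elsewhere).

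Target genes of AP-1 and EGR had 23 tested members of 34, 15 lower and 8 higher after stem cells with a median of -0.215, or -0.079 without replicate 6. At an unadjusted p under 0.05 there were 0 in either direction, and 0 after adjustment. Those of smallest p were the natriuretic peptides NPPA (-0.77 ± 0.38, limma adjusted p = 0.497) and NPPB (-1.50 ± 0.76, adjusted p = 0.501, or -0.90 without replicate 6), the membrane metalloproteinase MMP14 (-0.22 ± 0.13) and the cytokine TGFB1 (-0.48 ± 0.29). The MMP14 probe set was faint, at 8.28 on replicate 6 and 10.1 to 15.9 on the others, around the median intensity of an array. Of the 23, 10 (43.5%) had their lowest value on replicate 6, against 10.7% of all probe sets. IL6 and CCL2 were counted both here and among the other immediate early genes, and FN1 both here and among the fibroblast markers. The counts of these lists are therefore not separate observations. Between the groups, cell type markers past an unadjusted p of 0.05 went both ways, and none passed after adjustment. Lower after stem cells were the macrophage genes TYROBP (-0.76 ± 0.30, limma adjusted p = 0.423) and AIF1 (-0.65 ± 0.29, adjusted 0.457), 2 of 9 in that list beside 5.15% of all probe sets, the endothelial gene ENG (-0.65 ± 0.29, adjusted 0.458) and the smooth muscle gene CNN1 (-1.54 ± 0.69, adjusted 0.458). Higher were the endothelial gene TEK (0.38 ± 0.17, adjusted 0.455) and the collagen gene COL3A1 (0.35 ± 0.12, adjusted 0.42), beside 5.4% of all. The COL3A1 probe set was faint on every array, at 8.69 to 16.7, around the median intensity of an array (13.4 to 13.9). Without replicate 6, TYROBP and COL3A1 stayed under an unadjusted p of 0.05, and AIF1, ENG, CNN1 and TEK did not. The part of these cell types in the FOSL2 and NR4A differences was not tested.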

How the data were processed

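Biotin-labelled cRNA from 13 heart biopsies was hybridised to Affymetrix porcine arrays. The deposited values are intensities on a linear scale. The submitters' processing notes name GCRMA, with no version or settings in the sources used here. Normalization between arrays hides a change shared by most genes. Of 24123 probe sets 124 controls were left out, and 14399 with a mean log2 intensity over the 40th percentile (3.36) were tested. The highest of 17 tag controls averaged 2.58. All 7 AP-1 and EGR probe sets passed, each matched by gene ID to the Sscrofa11.1 gene table, used for names alone.

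Stem cell and saline arrays were set against each other with limma 3.58.1 in R 4.3.3 (lmFit, eBayes with a variance trend, Benjamini-Hochberg over all probe sets tested) and by exact permutation. Correlations had 100000 resamples, or all orders within a group. A gene in a list is its probe set of highest mean. Up to 4 genes of smallest p were named per list, and the 10 nearest in pattern. Members and lists were chosen with earlier results of these data known. The fit was tested on simulated data. Motifs of the promoters were not analysed here. Alternatives were other filters, normalizations and variance models, array weights, a floor, a covariate for control ratios, a replicate block and leaving out each array.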

Additional observations from a re-analysis of the deposited data

Results flagged for a closer look

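Among 100 groups of arrays checked for a single array far from the rest (7 stem cell or 6 saline arrays of a named probe set), 15 had one by Dixon's ratio, the gap to the nearest array over the whole range, whose 95% limits are 0.568 for 7 arrays and 0.625 for 6. Chance flags about 1 in 20 groups. Of the 15, 14 were stem cells replicate 6 as the lowest array. Among the factors these were ATF3 (0.717), FOS (0.669) and EGR1 (a) (0.592). Among the other genes they were OAZ1 (0.848), DUSP1 (0.832), BTG2 (0.801), CYR61 (0.783), PLK2 (0.701), ZFP36 (0.686), IER5 (0.673), XIRP1 (0.662), MMP14 (0.631), RHOB (0.574) and CCL2 (0.574). Most of these genes were named for a pattern like that of the factors or for a low value on replicate 6. Replicate 6 had also been singled out for the factors before this check. The ratios therefore add no separate support for the factors or the other genes. The chance rate does not hold for groups chosen in this way. MMP14 was also faint on every array, at 8.28 to 15.9. Replicate 6 was such a low array in 68 of all 14399 probe sets tested (0.472%). The remaining group was saline, where replicate 5 was the highest array for EGR1 (c) (0.755), with an intensity of 2910 against 227 to 424 on the other saline arrays.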

How the results depend on the processing

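The count of AP-1 and EGR probe sets at an adjusted p under 0.05 was 0 under every alternative run, and also at 0.10. Over all probe sets it was 0 too, except without saline replicate 5, when 1 passed (adjusted p = 0.0219). The adjusted p of FOSL2 ran from 0.293 to 0.702 and its difference from -1.78 to -1.05 with 1 array left out. Its unadjusted p was not under 0.05 without saline replicate 5, with array weights or with the replicate block. Other differences turned sign: with array weights FOS was at 0.198, ATF3 at 0.0989 and EGR1 (c) at 0.473, and the cause was not tested. With 1 array left out FOS ran from -0.345 to 0.45, JUN from -0.000309 to 0.513, ATF3 from -1.11 to 0.432, EGR1 from -0.357 to 0.529 for (c), -0.482 to 0.118 for (b) and 0.0622 to 0.644 for (a), and the median of the genes from -0.345 to 0.45. SD ratios that fell under 1 without stem cells replicate 6 were 0.787 for FOS, 0.374 for ATF3, 0.781 for EGR1 (c) and 0.67 for EGR1 (a). Replicate numbers gave no clear sign of pairing the arrays: of 6 same-numbered pairs 1 correlated over 0.1 (-0.266 to 0.237). These correlations cannot settle whether the arrays were paired. With the replicate block the median was -0.264, the smallest adjusted p 0.53, and EGR1 (c) turned to 0.144. With 7 and 6 arrays, the intervals of all 7 probe sets leave room for differences of over 1 on the log2 scale. The motif search of the promoters was not run.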
